A study of Rattus norvegicus with 8 samples.

Results

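Transcripts of 8 markers of immature and repair Schwann cells (Ngfr, S100b, Gfap, Gap43, Ncam1, Cd24, L1cam and Runx2) were followed through sciatic nerve allografts of the rat. They were picked out by gene symbol as 8 of the 32545 genes in the deposited table, and each symbol stood on 1 Ensembl gene. All 8 passed the filter on low values, which left 16478 genes for testing. Bulk RNA was sequenced from 3 PEG-fused peripheral nerve allografts (PNAs; PEG 1 to PEG 3), 3 negative control PNAs (NC 1 to NC 3) and 2 unoperated sciatic nerves (Unop 1 and Unop 2), 1 library per animal. All donors and hosts were wild-type, outbred female Sprague Dawley rats, and the animals sampled were 3 to 6 months old. For both kinds of PNA, a piece of the host nerve was cut out and replaced by a donor nerve that had not been tissue matched, without immunosuppression, and the graft was collected at 14 days postoperatively (PO). Both were bathed in hypotonic Plasmalyte A and methylene blue, sutured at each end and rinsed with a calcium-containing saline. PEG-fused PNAs also received polyethylene glycol (PEG), which fuses cut axon membranes, and NC PNAs did not. RNA integrity numbers lay between 7.1 and 8.2, and 0.13 to 4 µg of total RNA went into a library. A graft can hold cells of the donor and of the host, and the reads do not tell them apart.

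A Schwann cell is the glial cell of peripheral nerve. In an intact nerve, some Schwann cells wrap large axons in myelin and others (Remak cells) ensheathe bundles of thin axons without myelin. When axons are lost, myelinating cells shut down myelin genes and become repair cells, which regain genes of the immature Schwann cell, clear myelin and guide regrowing axons. Several of the 8 markers, among them Ngfr, Gfap, Gap43, Ncam1 and L1cam, are also made by the Remak cells of an intact nerve, and S100b is made by mature Schwann cells as well.

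Against NC PNAs, all 8 markers had a positive log2 fold change in PEG-fused PNAs, and 4 of them (Ngfr, S100b, Cd24 and L1cam) were significantly higher. Against Unop nerves they fell into 3 patterns. Ngfr, Cd24 and Runx2 were higher in both kinds of PNA, S100b, Gfap and L1cam were lower in both, and the remaining pair passed the threshold in 1 kind of PNA each, Gap43 as higher in PEG-fused and Ncam1 as lower in NC PNAs. Measured relative to genes of the whole Schwann lineage, Ngfr, S100b and Cd24 lay higher in every PEG-fused than in every NC PNA. The other 5 overlapped, and the share of all genes in such an order was not computed on this scale.

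Values are read counts that the authors divided by a size factor per library (normalized read counts), so counts of 1 gene can be compared between libraries, and levels of different genes are not compared here. Libraries held from 32472925 to 39959620 reads on genes. Fold changes are from limma, fitted to log2(normalized read count + 1) of the 8 libraries together, where the added 1 hardly matters at the counts of these markers. A gene is called higher or lower at a Benjamini-Hochberg adjusted p under 0.05 over all 16478 genes. At that rule 28.9% of all genes were called in PEG-fused against NC PNAs, 15.0% higher and 13.9% lower. Against Unop nerves, 29.1% were higher and 28.6% lower in PEG-fused PNAs, and 32.2% were higher and 32.3% lower in NC PNAs. Comparisons with Unop rest on 2 nerves and on a spread shared by the 3 groups, and both comparisons use the same Unop nerves.

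The tissue carried the genes that mark nerve. Sox10, the defining transcription factor of the Schwann lineage, was read in each library, at between 1196 and 4257 normalized counts. Muscle and myelin genes varied among the NC PNAs, and NC 1 had the highest sums of both. Its summed count of 8 skeletal muscle genes was 683216, against 11626 in NC 2 and 251898 in NC 3, between 2842 and 16554 in PEG-fused PNAs, and 5949 and 35185 in Unop nerves. On muscle genes NC 3 was thus also above every PEG-fused and Unop library, and NC 2 lay within the PEG-fused range. In NC 1 the summed count of 15 genes of myelinating Schwann cells was 96391, against 36395 and 28908 in NC 2 and NC 3. Results for Gfap, Ncam1 and Runx2 are therefore also given without NC 1. Among cells that carry some of the 8 markers outside the Schwann lineage, T and NK cells also differed between the PNAs. Their 8 genes summed to between 1211 and 3743 in PEG-fused PNAs, between 15981 and 32188 in NC PNAs, and 205 and 334 in Unop nerves. In bulk tissue, fewer cells of a type and less RNA per cell cannot be told apart.

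**Figure D1:**
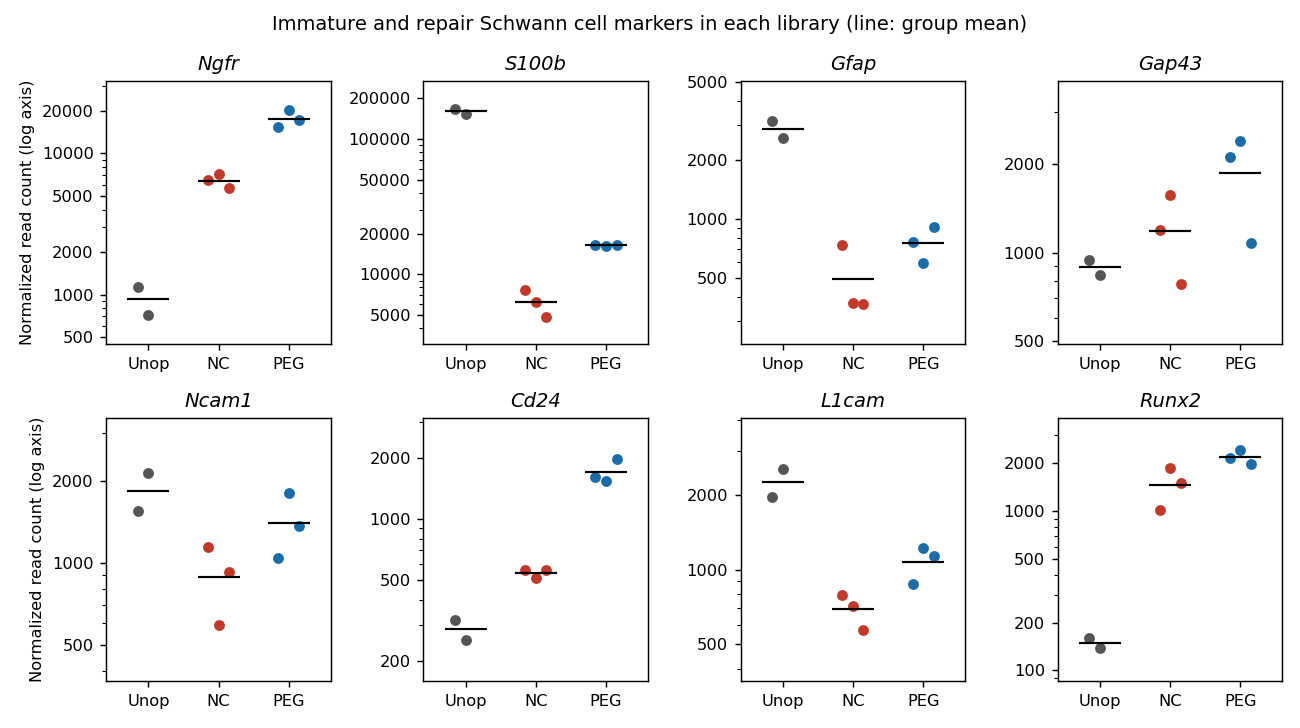
Normalized read counts (vertical, log axis) of each marker in the 2 Unop nerves, 3 NC PNAs and 3 PEG-fused PNAs; points are libraries and lines are group means. Ngfr, Cd24 and Runx2 are lowest in Unop nerves, S100b, Gfap and L1cam are highest there, and the PEG-fused points lie above all NC points for Ngfr, S100b, Cd24, L1cam and Runx2.

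Promoters of 4 of the 8 markers were matched in RefSeq (assembly GRCr8, a later build than the Rnor 6.0 to which the reads were aligned). They belong to a pair that was higher in both kinds of PNA than in Unop nerves (Cd24 and Runx2) and a pair that was lower (S100b and Gfap), and are shown to set the pairs side by side. Each runs 5′ to 3′ from 250 bases before the transcription start to 50 bases after it. Capitals mark matches to the RUNX motif.
Cd24, chr20:48656227-48656526, plus strand: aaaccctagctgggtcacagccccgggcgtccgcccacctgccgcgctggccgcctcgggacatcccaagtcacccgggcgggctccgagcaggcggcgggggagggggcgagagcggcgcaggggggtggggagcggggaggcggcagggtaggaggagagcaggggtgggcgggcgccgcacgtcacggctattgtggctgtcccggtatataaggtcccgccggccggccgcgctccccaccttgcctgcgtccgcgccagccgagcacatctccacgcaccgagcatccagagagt
Runx2, chr9:23664808-23665107, plus strand: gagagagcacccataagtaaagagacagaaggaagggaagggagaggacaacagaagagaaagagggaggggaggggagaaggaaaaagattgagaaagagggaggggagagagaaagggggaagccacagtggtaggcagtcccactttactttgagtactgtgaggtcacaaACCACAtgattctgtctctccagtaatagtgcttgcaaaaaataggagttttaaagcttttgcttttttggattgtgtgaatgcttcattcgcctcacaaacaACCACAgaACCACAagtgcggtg
S100b, chr20:12381032-12381331, minus strand: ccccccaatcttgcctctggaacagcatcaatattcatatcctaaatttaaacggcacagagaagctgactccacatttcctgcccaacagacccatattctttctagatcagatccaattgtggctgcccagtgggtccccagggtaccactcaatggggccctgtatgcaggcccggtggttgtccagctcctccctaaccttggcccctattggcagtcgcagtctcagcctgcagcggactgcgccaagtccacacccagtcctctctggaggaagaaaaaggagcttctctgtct
Gfap, chr10:88361612-88361911, minus strand: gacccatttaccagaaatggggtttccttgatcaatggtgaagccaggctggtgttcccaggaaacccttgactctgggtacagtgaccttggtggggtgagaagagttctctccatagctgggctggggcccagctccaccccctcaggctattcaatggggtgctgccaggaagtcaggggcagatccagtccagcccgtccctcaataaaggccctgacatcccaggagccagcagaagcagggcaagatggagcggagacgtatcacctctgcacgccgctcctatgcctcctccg
Motifs were searched on both strands as letters: TGANTCA for AP-1, the family of Jun, ACAANG for SOX factors, TGTGGT for RUNX factors, TTCNNNGAA for STAT factors and GCGNGGGCG for EGR factors. Of the 4 sequences shown, that of Runx2 alone held a match, with 3 copies of the motif on the minus strand, read here as ACCACA, that began at -76, 28 and 36 relative to the start. The copies do not overlap each other. A second Runx2 start (chr9:23742990-23743289) held no match to any of the 5. Of 33469 promoters of the same length in the table, 17.3% held the RUNX motif, 7.33% AP-1, 42.1% SOX, 8.87% STAT and 4.98% EGR. A missing match says only that these letters are not in the window.

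Ngfr (ENSRNOG00000005392) encodes the p75 neurotrophin receptor, which immature, Remak and repair Schwann cells carry and myelinating ones lose. Its normalized counts were 15448, 20293 and 17141 in the PEG-fused PNAs, 6423, 7128 and 5706 in the NC PNAs, and 1139.7 and 713 in the Unop nerves. The 3 groups did not overlap and stood in the order Unop, NC, PEG. The count was 17628 ± 2459 (SD, n = 3) in PEG-fused and 6419 ± 711 (SD, n = 3) in NC PNAs, a ratio of 2.75 (log2 1.45 with a standard error, SE, of 0.18, adjusted p = 0.00135 in limma). Over Unop nerves, at 926 ± 302 (SD, n = 2), the ratio was 19.0 for PEG-fused PNAs (log2 4.28, limma adjusted p = 1.96e-06) and 6.93 for NC PNAs (log2 2.82, limma adjusted p = 7.75e-06). Of all tested genes, 97.9% had a lower fold change than Ngfr in PEG-fused against NC PNAs.

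S100b (ENSRNOG00000001295) encodes a calcium-binding protein of the Schwann cell cytoplasm, present before and after myelination. Its counts of 16606, 16279.9 and 16428 in the PEG-fused PNAs were nearly equal, with a coefficient of variation of 0.994%. The NC PNAs had 7649, 6242 and 4875, and the Unop nerves 167369 and 153431. Each PEG-fused PNA was thus above each NC PNA and far below both Unop nerves. The ratio of PEG-fused to NC means was 2.63, with a log2 fold change of 1.42 (SE 0.16, adjusted p = 0.000897 in limma). Compared with Unop nerves, S100b was 9.76-fold lower in the PEG-fused PNAs (log2 -3.29, limma adjusted p = 2.89e-06) and 25.6-fold lower in NC PNAs (log2 -4.70, limma adjusted p = 7.22e-07). The 15 myelinating Schwann cell genes were all lower in both kinds of PNA too, with median log2 fold changes of -6.42 and -6.78. Adipocytes also make S100b, and 8 adipocyte genes summed to 162060 and 99369 in Unop nerves and to between 7726 and 14374 in the 6 PNAs. The part of either in the fall of S100b was not tested.

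Gfap (ENSRNOG00000002919) encodes an intermediate filament protein of immature, Remak and repair Schwann cells. Its counts were 760.0, 596 and 912 in the PEG-fused PNAs, 737, 373 and 367 in the NC PNAs, and 3154 and 2575 in the Unop nerves. NC 1 lay among the PEG-fused PNAs, and both Unop nerves lay above all 6 grafts. Gfap was 3.79-fold lower in PEG-fused PNAs (log2 -1.94, limma adjusted p = 0.000905) and 5.82-fold lower in NC PNAs (log2 -2.61, limma adjusted p = 0.000126) than in Unop nerves. Between the PNAs the log2 fold change was 0.68 (SE 0.28, adjusted p = 0.104 in limma). Without NC 1, the library with the most muscle and myelin reads among the NC PNAs, it was 1.01 (limma adjusted p = 0.00751). With any other PNA left out it lay between 0.50 and 0.84, and the limma adjusted p between 0.106 and 0.267.

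Gap43 (ENSRNOG00000001528) encodes a growth-associated membrane protein of growing axons that Schwann cells without myelin also make. Its counts were 2121, 2396 and 1079 in the PEG-fused PNAs, 1195, 1567 and 782 in the NC PNAs, and 945 and 840.5 in the Unop nerves. PEG 3 and NC 3 were the lowest of their groups, and the groups of PNAs overlapped. The coefficient of variation was 37.3% in PEG-fused PNAs, the widest of the 8 markers there, and 33.2% in the NC group. The fitted log2 difference was 0.63 (SE 0.33, adjusted p = 0.183 in limma) between the PNAs and 0.35 (SE 0.37, adjusted p = 0.430 in limma) in NC PNAs against Unop nerves. In PEG-fused PNAs against Unop nerves it was 0.98 (SE 0.37, adjusted p = 0.0483 in limma), a call lost in 7 of 17 alternatives, among them the omission of NC 1 (limma adjusted p = 0.0589), PEG 1 (limma adjusted p = 0.127), PEG 2 (limma adjusted p = 0.135), Unop 1 (limma adjusted p = 0.127) or Unop 2 (limma adjusted p = 0.186). The difference between the PNAs moved with single libraries. It was 0.99 without PEG 3 (limma adjusted p = 0.0399), 0.41 without PEG 2 (limma adjusted p = 0.454) and 0.37 without NC 3 (limma adjusted p = 0.451).

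The other surface proteins include 2 adhesion molecules of the immunoglobulin family, Ncam1 and L1cam. Ncam1 (ENSRNOG00000031890) encodes the neural cell adhesion molecule, which Remak and immature Schwann cells, muscle precursors and NK cells can carry. Its counts were 1038, 1804 and 1361 in the PEG-fused PNAs, 1142, 588 and 925 in the NC PNAs, and 1546 and 2133 in the Unop nerves. The PEG-fused PNAs overlapped with both other groups, and only NC PNAs and Unop nerves were apart. Ncam1 was 2.08-fold lower in NC PNAs than in Unop nerves (log2 -1.09, SE 0.31, adjusted p = 0.0144 in limma), a call that was lost without Unop 2 (log2 -0.86, limma adjusted p = 0.114). Between the PNAs the log2 fold change was 0.68 (SE 0.28, adjusted p = 0.103 in limma), and it was 0.89 without NC 1 (limma adjusted p = 0.0510), 0.41 without NC 2 (limma adjusted p = 0.263) and 0.48 without PEG 2 (limma adjusted p = 0.297). The 95% interval between PEG-fused PNAs and Unop nerves ran from -1.12 to 0.30.

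Cd24 (ENSRNOG00000000321) encodes a small membrane-anchored glycoprotein of immature Schwann cells that B cells and neutrophils carry as well. Its counts were 1606, 1545 and 1974 in the PEG-fused PNAs, 559, 512 and 559 in the NC PNAs, and 318 and 254 in the Unop nerves. The groups did not overlap and stood in the order Unop, NC, PEG. Cd24 had the largest difference between the PNAs of the 8 markers, from 543 ± 27.1 (SD, n = 3) in NC to 1708 ± 232 (SD, n = 3) in PEG-fused PNAs, a ratio of 3.14 (log2 1.64, SE 0.13, adjusted p = 0.000401 in limma). Of all tested genes, 98.6% had a lower fold change in this comparison. Over Unop nerves, Cd24 was 5.98-fold higher in PEG-fused PNAs (log2 2.58, limma adjusted p = 4.00e-06) and 1.90-fold higher in NC PNAs (log2 0.93, limma adjusted p = 0.000621). The 4 tested B cell genes summed to between 23.4 and 57.5 in PEG-fused PNAs and between 219 and 465 in NC PNAs, and all 4 were lower in the PEG-fused ones. The summed count of 4 neutrophil genes was between 1900 and 3175 in PEG-fused and between 2173 and 2289 in NC PNAs. Most of this sum came from Csf3r and Mmp8, which differed in direction. Csf3r, a receptor for a granulocyte growth factor, was lower in PEG-fused PNAs (760.2 against 1629, log2 -1.10, limma adjusted p = 0.0185). Mmp8, the neutrophil collagenase, had a mean of 1641 against 527 and was higher in each PEG-fused than in each NC PNA, without passing the threshold (log2 1.86, limma adjusted p = 0.0546). S100a8 and S100a9 had low means in both kinds of PNA and were not called. The means in PEG-fused and NC PNAs were 17.7 and 13.5 for S100a8 (log2 0.38, limma adjusted p = 0.443). For S100a9 they were 46.6 and 47.5 (log2 -0.06, limma adjusted p = 0.944). The part of neutrophils or B cells in the Cd24 counts was not tested.

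L1cam (ENSRNOG00000061230) encodes an adhesion molecule that binds Schwann cells without myelin to axons. Its counts were 874, 1217 and 1130.4 in the PEG-fused PNAs, 786, 716 and 571 in the NC PNAs, and 1956 and 2544 in the Unop nerves. No groups overlapped, in the order NC, PEG, Unop, though PEG 1 and NC 1 lay close. The log2 fold change was 0.63 (SE 0.17, adjusted p = 0.0276 in limma) between the PNAs. This call was lost without PEG 2, PEG 3 or NC 3 (limma adjusted p = 0.102, 0.0877 and 0.0816), with log2 fold changes of 0.54, 0.59 and 0.50. Against Unop nerves, L1cam was 2.10-fold lower in PEG-fused PNAs (log2 -1.07, limma adjusted p = 0.00172) and 3.26-fold lower in NC PNAs (log2 -1.70, limma adjusted p = 9.76e-05).

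Runx2 (ENSRNOG00000020193) encodes a transcription factor best known for bone formation that Schwann cells switch on after injury. Its counts were 2154, 2419 and 1987 in the PEG-fused PNAs, 1012, 1883 and 1501 in the NC PNAs, and 159.9 and 138 in the Unop nerves. Both kinds of PNA were far above the Unop nerves, and the lowest PEG-fused PNA (PEG 3) was just above the highest NC PNA (NC 2). Over Unop nerves, Runx2 was 14.7-fold higher in PEG-fused PNAs (log2 3.87, limma adjusted p = 5.42e-06) and 9.85-fold higher in NC PNAs (log2 3.25, limma adjusted p = 7.6e-06). Between the PNAs the log2 fold change of 0.62 (SE 0.21, adjusted p = 0.0568 in limma) did not pass the threshold. It passed in DESeq2 (adjusted p = 0.0311), after rescaling by TMM factors (limma adjusted p = 0.0498) and without NC 2 (limma adjusted p = 0.0158). Without NC 1 it was 0.37 (limma adjusted p = 0.0920), and the highest adjusted p, 0.172 in limma, came without PEG 2. Sp7, a defining factor of bone cells, had at most 3.71 normalized counts in a library. Of the 6 other bone and cartilage genes, 1 (Acan) was higher in each kind of PNA than in Unop nerves. Mean Acan counts were 3.84 (Unop), 49.7 (NC) and 132 (PEG-fused), the same order as for Runx2. Against Unop nerves, 2 of the 6 were lower in PEG-fused and 3 in NC PNAs. Between the PNAs, Sox9 was higher after PEG fusion (log2 1.24, limma adjusted p = 0.0118), 0 were lower and 5, with Acan, were not called. The part of bone or cartilage cells in the Runx2 counts was not tested.

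**Figure D2:**
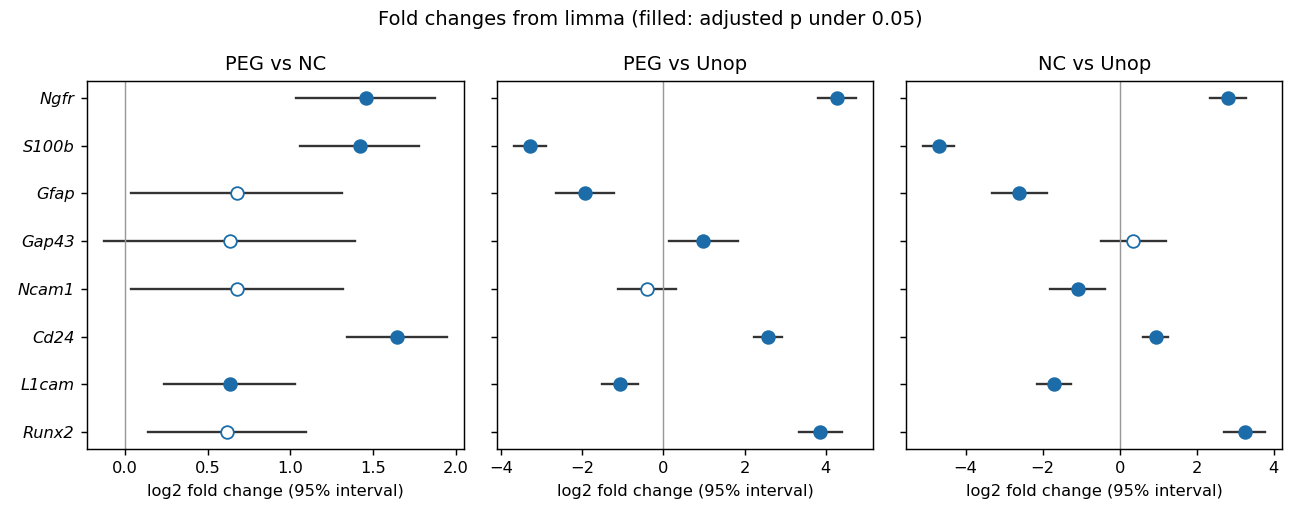
Log2 fold changes of the 8 markers (horizontal) with 95% intervals from limma in the 3 comparisons; filled points passed an adjusted p of 0.05. All 8 points lie to the right of 0 in PEG vs NC, where Ngfr, S100b and Cd24 are above 1, and they spread from -3.29 to 4.28 in PEG vs Unop and from -4.70 to 3.25 in NC vs Unop.

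Across the 8 markers, 4 were called higher and 0 lower in PEG-fused than in NC PNAs, where 15.0% of all genes were higher. The median log2 fold change was 0.68, against 0.00174 over all tested genes. Each PEG-fused PNA was above each NC PNA for 5 of the 8, an order seen in 25.6% of all genes, and the reverse order, held by 0 markers, in 23.3%. With a log2 fold change above 1 also required, 3 of the 8 were called higher and 0 lower, against 4.41% and 7.14% of all genes. In PEG-fused PNAs against Unop nerves, 4 were higher, 3 lower and 1 not called, where 57.7% of all genes were called. In that comparison 4 markers lay above and 3 below both Unop nerves in every PEG-fused PNA, against 37.3% and 37.2% of all genes. In NC PNAs against Unop nerves, 3 were higher, 4 lower and 1 not called, where 64.5% of all genes were called. For the same 3 and 4 markers every NC PNA lay above or below both Unop nerves, against 37.2% and 37.4% of all genes. The markers were chosen with earlier results of these data known, so the values over all genes are a background and not a test.

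To set the markers against genes made across the Schwann lineage, their log2 levels were taken relative to the mean of Sox10, Erbb3 and Cdh19. All 3 genes were themselves higher in PEG-fused than in NC PNAs, by log2 fold changes of 0.83, 0.66 and 0.86 (limma adjusted p = 0.00394, 0.00569 and 0.0154). Against Unop nerves, Sox10 and Cdh19 were lower in PEG-fused PNAs (log2 -0.65 and -1.94), and Erbb3, a neuregulin receptor, did not pass the threshold (log2 0.27, limma adjusted p = 0.122). In NC PNAs, Sox10, Erbb3 and Cdh19 were all lower than in Unop nerves, by unequal amounts (log2 -1.48, -0.39 and -2.80). Relative levels were therefore compared between the PNAs, and whether the 3 genes follow the amount of Schwann cell RNA was not tested.

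On this relative log2 scale, Ngfr was at 2.00 ± 0.15 (SD, n = 3) in PEG-fused and 1.32 ± 0.22 (SD, n = 3) in NC PNAs, a difference of 0.67. S100b was at 1.91 ± 0.10 (SD, n = 3) in PEG-fused and 1.27 ± 0.07 (SD, n = 3) in NC PNAs, a difference of 0.64. Cd24 had the largest difference, 0.86, with levels of -1.37 ± 0.27 (SD, n = 3) and -2.23 ± 0.27 (SD, n = 3). For these 3 markers each PEG-fused PNA lay above each NC PNA, with an exact two-sided permutation p of 0.1, the smallest that 3 against 3 libraries can give. The relative levels of Gfap, Gap43, Ncam1, L1cam and Runx2 differed by between -0.16 and -0.10 and overlapped between the PNAs, with exact permutation p between 0.5 and 0.9. With Sox10 alone as the reference, 3 markers again did not overlap. Without NC 1 the number was 4, and the marker added was Runx2, which then lay lower in PEG-fused PNAs, at -1.01, -0.96 and -1.06 against -0.43 in NC 2 and -0.51 in NC 3. A gap between the groups is easier to reach with fewer NC PNAs. The share of all tested genes that do not overlap on this relative scale was not computed, so these counts have no background beside them.

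**Figure D3:**
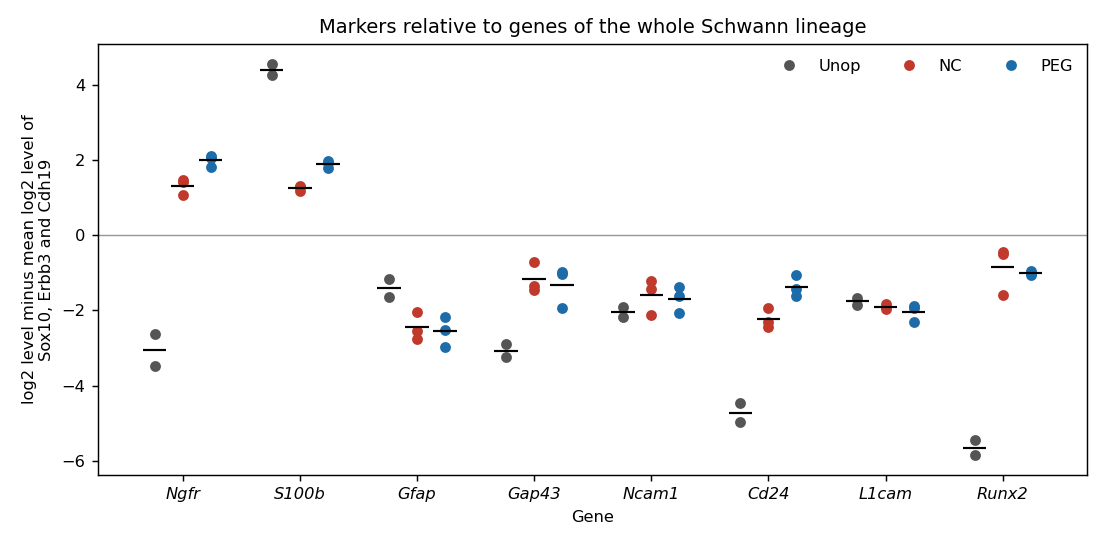
Log2 level of each marker minus the mean log2 level of Sox10, Erbb3 and Cdh19 (vertical) in the 8 libraries, with group means as lines. PEG-fused points lie above NC points for Ngfr, S100b and Cd24, and the PNAs overlap for the other 5. Ngfr, Gap43, Cd24 and Runx2 are lowest and S100b and Gfap highest in Unop nerves. The reference genes themselves differ between Unop nerves and NC PNAs.

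Of 18 further genes of immature or repair Schwann cells, 17 were tested, and 8 were higher and 3 lower in PEG-fused than in NC PNAs, with a median log2 fold change of 0.77. Nes, which encodes the intermediate filament nestin, counted 4443, 6352 and 4514 in the PEG-fused PNAs, 1399, 1665 and 1671 in the NC PNAs, and 6385 and 6498 in the Unop nerves. Its log2 fold change between the PNAs was 1.68 (SE 0.15, adjusted p = 0.000480 in limma). Shh, a signal that repair Schwann cells release, counted 348, 214 and 390.2 in the PEG-fused PNAs, 64.3, 28.0 and 37.6 in the NC PNAs, and 413 and 366 in the Unop nerves. Both genes were lowest in the NC PNAs. PEG-fused PNAs overlapped with Unop nerves for Shh, whereas each PEG-fused PNA was below both Unop nerves for Nes. The log2 fold change of Shh was 2.88 (SE 0.33, adjusted p = 0.00102 in limma). Sox2, a transcription factor that keeps Schwann cells immature, was higher by 1.15 (limma adjusted p = 0.00221), and Id2, an inhibitor of differentiation factors, was lower by -1.07 (limma adjusted p = 0.0108). Against Unop nerves, 10 of the 17 were higher and 1 lower in PEG-fused PNAs, and 10 were higher and 4 lower in NC PNAs.

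The 24 genes that are partners or relatives of the 8 markers moved both ways between the PNAs, with 5 higher, 2 lower and a median log2 fold change of 0.01. Nrcam and Nfasc, relatives of L1cam, were among the 5. Nrcam counted 3978, 4103 and 4131 in the PEG-fused PNAs, 837, 864 and 1017 in the NC PNAs, and 2044 and 3168 in the Unop nerves, a log2 fold change of 2.17 between the PNAs (SE 0.16, adjusted p = 0.000343 in limma). Nfasc was higher by 2.04 (limma adjusted p = 0.00162), with a mean of 5551 in Unop nerves, 247 after PEG fusion and 62.3 in NC PNAs. St8sia4, an enzyme that adds polysialic acid to Ncam1, was lower in PEG-fused PNAs, at 581, 418 and 544 against 1270, 1290 and 1059 in NC PNAs and 120.2 and 100.1 in Unop nerves (log2 -1.24, limma adjusted p = 0.00145). Runx3, a relative of Runx2 that T cells make, was lower by -1.73 (limma adjusted p = 0.00438) in PEG-fused PNAs, where Runx2 had a log2 fold change of 0.62. Against Unop nerves, 8 of the 24 were higher and 11 lower in PEG-fused PNAs, and 7 were higher and 12 lower in NC PNAs.

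**Figure D4:**
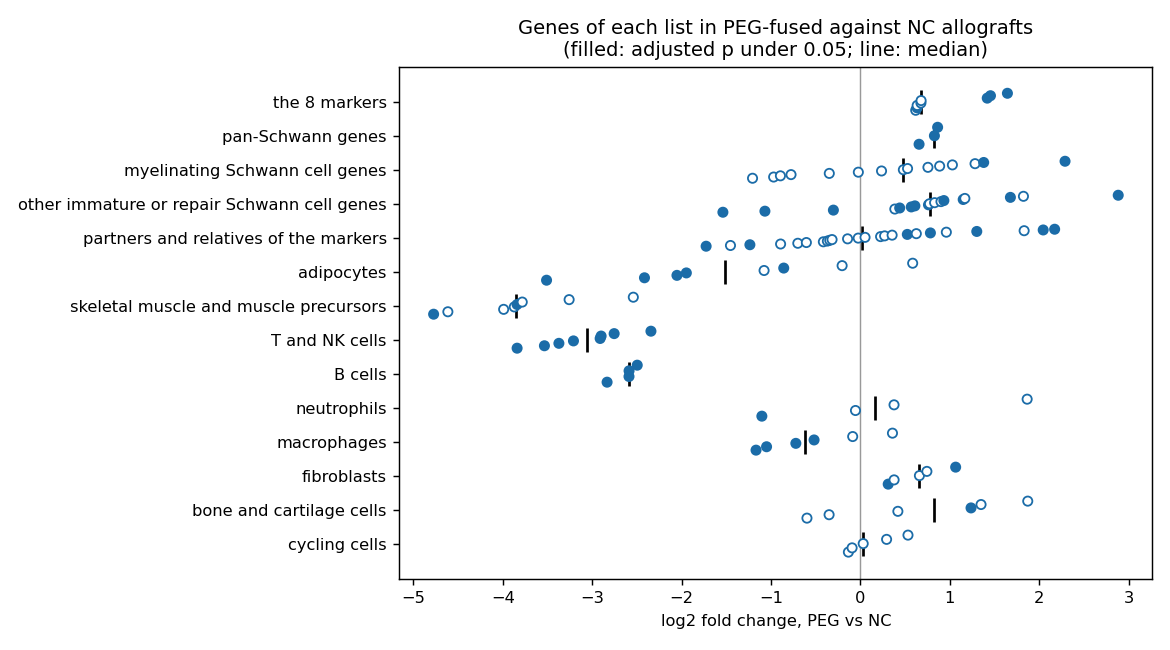
Log2 fold changes in PEG-fused against NC PNAs (horizontal) for the 8 markers and for the tested genes of each list, 1 point per gene, filled where the adjusted p was under 0.05, with the median as a line. The markers and the pan-Schwann genes lie to the right of 0, the T and NK cell and B cell genes to the left, and the myelinating genes on both sides.

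The other lists give the setting. Of the 15 myelinating Schwann cell genes, 2 (Gjb1 and Ugt8) were higher in PEG-fused than in NC PNAs and 0 lower, with a median log2 fold change of 0.48. All 8 T and NK cell genes were lower (median -3.06), as were 5 of 8 adipocyte genes (median -1.51), 4 of 6 macrophage genes (median -0.62) and 2 of 8 muscle genes (median -3.86). Of 5 fibroblast genes 2 were higher (median 0.66), and of 5 genes of cycling cells 0 passed the threshold between the PNAs (median 0.03), though all 5 were higher in both kinds of PNA than in Unop nerves. The part of these cells in the marker values was not tested.

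For each marker, the 2 tested genes whose profile over the 8 libraries was closest were found by the root mean square difference of mean-centred log2 counts. For Ngfr they were Btc (0.15), which encodes the growth factor betacellulin, and Serpinb8 (0.19). Tekt3 (0.18) and Fxyd6 (0.22) were closest to S100b, Stac (0.17) and Arhgef26 (0.19) to Gfap, and Bsn (0.25) and Wdr78 (0.29) to Gap43. Tln2 (0.15) and Irs1 (0.16) were closest to Ncam1, Htr2b (0.23) and Tmc7 (0.23) to Cd24, Ntng1 (0.11) and Parva (0.12) to L1cam, and Rgs16 (0.15) and Diaph3 (0.19) to Runx2. Among the markers themselves, Ncam1 and L1cam (0.39), Ngfr and Runx2 (0.44) and Gfap and L1cam (0.52) were closest, and S100b and Runx2 (3.31) were farthest apart.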

How the data were processed

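Bulk poly-A RNA of 8 sciatic nerve samples was measured. The deposited signal is a normalized read count: the authors mapped read pairs with TopHat2 (genome Rnor 6.0), assigned them to Ensembl genes by HTSeq-count and divided by DESeq2 median-of-ratios size factors. Tool versions are not given in the sources used here. The authors' own fold changes and p-values were not used. Each sample's own table held the same values as the joint table. All values above 0 were whole reads within 0.001 after multiplication by 1 size factor per library (between 0.800 and 1.12).

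A minimum of 10 normalized counts in 2 or more libraries left the genes tested with limma 3.58.1 (trend, R 4.3.3) in 1 group-means fit of the 8 libraries. Adjusted p is from Benjamini-Hochberg over 16478 genes. DESeq2 1.42.0 and edgeR 4.0.16 (quasi-likelihood) on the recovered whole reads, other filters and pseudocounts, TMM rescaling, a robust fit, a fit of the compared groups alone, a replicate block, a fold change threshold and each library left out were alternatives. On those reads edgeR called 4977 genes and 4 markers between the PNAs, and DESeq2 5540 genes and 5 markers. Depth was between 32472925 and 39959620 reads on genes. Relative levels were tested by exact permutation in SciPy 1.17.1.

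The markers, gene lists and motifs were chosen with earlier results of these data known. Named genes are the 8 markers, the 2 closest genes of each, and up to 4 genes per list with the smallest adjusted p between the PNAs. Sp7, which did not pass the filter, was named outside this rule after its values were seen. Foxd3, Myh1, Myh4 and Cd79a of the lists were not analysed here. The limma script was checked on simulated counts. Reads of overlapping genes can be lost in counting.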

Additional observations from a re-analysis of the deposited data

How the results depend on the processing

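The direction of all 24 differences (8 markers in 3 comparisons) was the same in 17 alternatives, the fold change threshold not counted. In each of these, 17 of the 24 stayed on their side of the adjusted p threshold. The exceptions were Gap43 in all 3 comparisons, Gfap, L1cam and Runx2 between the PNAs, and Ncam1 in NC PNAs against Unop nerves. Requiring a log2 fold change beyond 1 as well removed the call of L1cam between the PNAs (log2 0.63). Against Unop nerves it removed those of Gap43 in PEG-fused PNAs (log2 0.98) and Cd24 in NC PNAs (log2 0.93). With each library left out in turn, between 3 and 5 markers were called in PEG-fused against NC PNAs. The labels do not say that a replicate number marks a shared batch, so the numbers were not taken as pairs. In deviations across genes, same-numbered PEG-fused and NC PNAs correlated at 0.11, 0.11 and -0.05, and those of unlike number at between -0.16 and 0.10. The 4 same-numbered pairs with Unop nerves lay between 0.14 and 0.16. Deviations of the Unop nerves from their mean mirror each other, so these 4 are not separate checks. With the number as a replicate block, limma called 5 markers between the PNAs, with Gap43 at an adjusted p of 0.0192, and Gap43 was also called in NC PNAs against Unop nerves (log2 0.66, limma adjusted p = 0.0104). Gap43 against Unop nerves lost its call in PEG-fused PNAs without a filter (limma adjusted p = 0.0565) and in a robust fit (limma adjusted p = 0.0694). Over all genes, 4763 were called in PEG-fused against NC PNAs, 1903 with a log2 fold change beyond 1 required, 2753 without PEG 2 and 3126 without PEG 3. With that fold change required, 5326 of 9513 genes remained called in PEG-fused and 6359 of 10627 in NC PNAs against Unop nerves. TMM factors moved group differences by at most 0.02 on the log2 scale.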
